A study of Mus musculus with 8 samples.

Results

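The transcripts of 9 genes that link mRNAs to deadenylases were followed in mouse ovary RNA that came down with DCP1A, a decapping co-activator, and in input RNA. The 9 genes were chosen by name, as RNA-binding proteins and BTG/TOB proteins that recruit deadenylases, and all 9 were found among the 23107 genes of the deposited count table. They are the zinc finger genes Zfp36, Zfp36l1 and Zfp36l2, the BTG/TOB genes Btg1, Btg2, Btg4, Tob1 and Tob2, and the Pumilio gene Pum2. RNA immunoprecipitation (RIP) with an antibody against DCP1A gave 4 libraries, and 4 libraries were made from input RNA. The tissue was ovarian cortex of mice at postnatal day 8, and the stated aim was to find RNAs bound by DCP1A in primary oocytes. The labels name no strain, genotype, treatment or pooling of animals for either group, and p-values therefore reflect the variation among these libraries alone, which may be technical. The tissue held somatic cells as well as oocytes, and control antibody precipitates were not analysed here.

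Deadenylation, the shortening of the poly(A) tail, is the usual first step in the decay of a cytoplasmic mRNA, and decapping by the DCP1 and DCP2 complex follows it. The CCR4-NOT and PAN complexes remove the tail but choose few targets by themselves. Adaptor proteins bring them there: the ZFP36 proteins bind AU-rich elements through tandem CCCH zinc fingers, Pumilio proteins bind their own motif in 3′ UTRs, and BTG and TOB proteins contact the CAF1 nucleases directly. In mouse oocytes, BTG4 licenses the clearance of maternal mRNA during meiotic maturation, and loss of ZFP36L2 impairs female fertility. The results below concern the mRNAs of these adaptors, not the proteins.

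RIP libraries held 16325387 to 21269891 counts and input libraries 13098153 to 25757618. Inputs 1 and 2 held 13098153 and 13142790 counts, with 30.7% and 30.9% in their 10 largest genes. Inputs 3 and 4 held 25757618 and 25030606 counts, with 13.0% and 16.6% there. In RIP 1 to 4 that share was 32.0%, 25.5%, 23.5% and 16.1%. The ribosomal RNA row Rn45s took 11.5% to 19.5% of counts in RIP libraries and 4.57% to 12.5% in input libraries. All 9 transcripts were well counted, from 222 counts (Btg4 in RIP 1) to 11960 (Zfp36l1 in input 3), and all of their deposited values were whole numbers. Ovarian markers were present: the 12 oocyte markers summed to 2630 to 3258 CPM (counts scaled by library size with TMM factors) in RIP and 2100 to 3852 in input, the 9 granulosa markers to 1572 to 2298 and 1272 to 2807, and the 8 stromal markers to 4398 to 8073 and 4273 to 6703. Of 9 marker lists, only the leukocyte share of counts separated the groups, at 0.00288 ± 0.000339% in RIP and 0.00214 ± 0.000198% in input (SD, n = 4 each; p = 0.0286 by an exact permutation test, two-sided, or 0.257 after Benjamini-Hochberg adjustment over the 9 lists). RIP 1 was the highest of the 4 RIP libraries for 4 of the adaptors and the lowest for another 4. Some of these places were close: Btg2 had 118.3 CPM in RIP 1 and 118.7 in the next library, and Tob2 65.0 and 62.4. The share of all genes with RIP 1 at either end was not taken. For the adaptors and their ratios, values with 1 library left out are given where that moved them by over 1.5 times, as the largest moves or as a range.

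None of the 9 adaptor transcripts passed the test between RIP and input, and 2 of them, Pum2 and Btg2, had lower mean levels in RIP at an unadjusted p under 0.05. Pum2 kept such a p in 19 of 21 alternatives and Btg2 in 13 of 21. The alternative with an adjusted p threshold of 0.01 reused the main fit, so its unadjusted p was the same by construction. The test was edgeR's quasi-likelihood test over 14667 genes with Benjamini-Hochberg adjustment at 0.05, and all 9 adaptors passed its filter on low counts. Over all genes, 0 (0%) were called higher in RIP and 6 (0.0409%) lower. At an unadjusted p under 0.05, 628 genes (4.28%) were lower and 462 (3.15%) higher. By DESeq2, 0 of the 9 adaptors were called, where 13 genes (0.089%) were higher and 43 (0.295%) lower over the table. The log2 fold change of RIP over input was negative for 7 of the 9 adaptors, with a median of -0.23, beside 51.7% negative and a median of -0.02 over all genes tested.

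**Figure D1:**
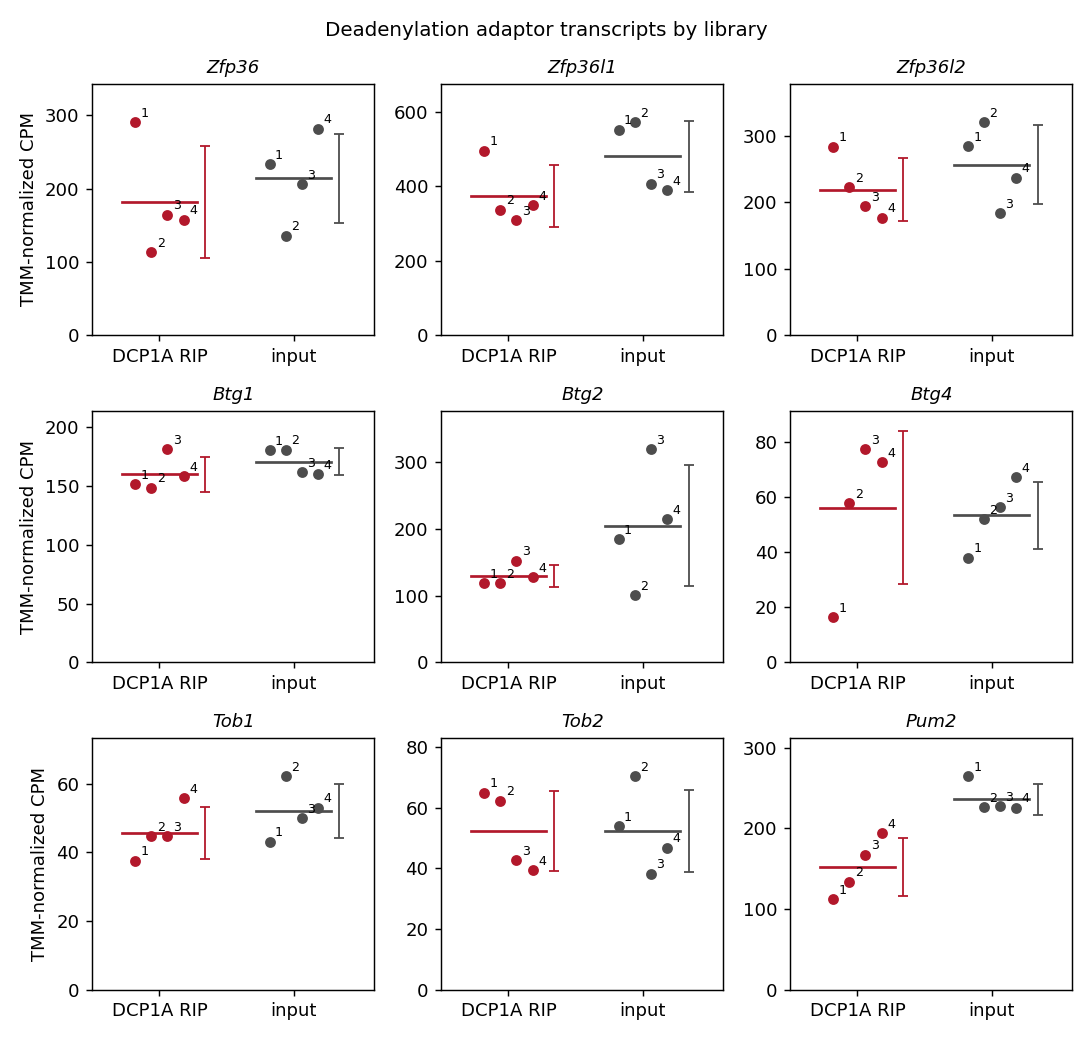
TMM-normalized CPM (vertical axes, each from 0) of the 9 adaptor transcripts in 4 DCP1A RIP libraries (red, left) and 4 input libraries (grey, right). Each point is a library with its number, the bar is the mean and the whisker the SD; the groups are apart for Pum2, from 113 to 194 in RIP and 226 to 265 in input, and overlap for the other 8 genes.

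Pum2 was the adaptor whose RIP and input libraries did not overlap. Pum2 encodes a Pumilio protein, which binds 3′ UTR motifs and recruits CCR4-NOT, and lies on mm10 chromosome 12 from 8674092 to 8752583. The transcript had 113, 134, 167 and 194 CPM in RIP 1 to 4, against 265, 226, 227 and 226 CPM in input 1 to 4. Every RIP library was below every input library, and the inputs 2 to 4 were almost level. The means were 152 ± 35.9 CPM in RIP and 236 ± 19.1 CPM in input (SD, n = 4 each). The log2 fold change was -0.64 ± 0.23 (SE, 95% interval -1.13 to -0.14, edgeR unadjusted p = 0.0152, adjusted p = 0.622). Groups that did not overlap were found for 370 genes (2.52%) lower in RIP and 406 (2.77%) higher, and of the 9 adaptors for 1 lower and 0 higher. Without RIP 1, the lowest library, the value was -0.51 (edgeR adjusted p = 1.00, with a range of 0.132 to 1.00 over 21 alternatives). It was -0.995 in the libraries numbered 1 and 2 alone and -0.33 in those numbered 3 and 4, and the difference between these was not tested. The unadjusted p was above 0.05 without RIP 2, at 0.0560, and in libraries 3 and 4 alone, at 0.205 (edgeR).

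Btg2 was narrowly spread in RIP and widely spread in input. Btg2 is an antiproliferative, p53-inducible BTG gene (chromosome 1, 134074865 to 134079155) that is also known as an immediate early gene, and its protein contacts CAF1 nucleases and poly(A)-binding protein. Its transcript had 118, 119, 152 and 127 CPM in RIP 1 to 4, against 185, 100, 319 and 215 CPM in input 1 to 4. The RIP libraries lay close together, with input 2 below all of them and the other 3 inputs above all of them. The means were 129 ± 16 CPM in RIP and 205 ± 90.2 CPM in input (SD, n = 4 each). The log2 fold change was -0.67 ± 0.30 (SE, 95% interval -1.30 to -0.03, edgeR unadjusted p = 0.0406, adjusted p = 0.654). Without input 3 it was -0.36 (edgeR unadjusted p = 0.197, adjusted p = 0.961, with a range of 0.223 to 1.00 over 21 alternatives). The unadjusted p was also above 0.05 without RIP 1, RIP 2, RIP 4 or input 4, at 0.0761, 0.0922, 0.0716 and 0.0755, by upper-quartile factors, at 0.0510, by library size alone, at 0.0620, and in libraries 1 and 2 alone, at 0.406 (edgeR). The value was -0.27 in libraries 1 and 2 alone and -0.94 in libraries 3 and 4 alone.

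Btg1 (chromosome 10, 96617001 to 96622813), the closest relative of Btg2 and likewise a growth-restraining adaptor, was the steadiest of the 9 transcripts. It had 151, 148, 181 and 158 CPM in RIP 1 to 4, against 180.1, 181, 161 and 159.8 CPM in input 1 to 4. The groups overlapped, and the log2 fold change was -0.09 ± 0.21 (SE, n = 4 each, 95% interval -0.54 to 0.35, edgeR adjusted p = 0.937), and -0.15 to -0.06 with 1 library left out. A ratio of the counts of both genes within a library needs no scaling between libraries. The log2 ratio of Btg1 over Btg2 was 0.36, 0.32, 0.25 and 0.32 in RIP 1 to 4, against -0.04, 0.85, -0.98 and -0.43 in input 1 to 4. The ratio thus varied little among RIP libraries, while in the inputs either paralog could be ahead. The mean ratio was 0.31 ± 0.04 in RIP and -0.15 ± 0.77 in input (SD, n = 4 each), and the difference of 0.46 was within the spread (p = 0.314 by the exact two-sided permutation test, or 0.786 adjusted over 5 paralog pairs). It was 0.18 without input 3 and 0.79 without input 2. The smallest p that 4 against 4 libraries can give is 0.0286. The difference in spread was not tested, and Btg1 over Btg2 was 1 of 5 pairs. The SD was also smaller in RIP than in input for Zfp36 over Zfp36l1 (0.35 and 0.67) and Zfp36l2 over Zfp36l1 (0.17 and 0.18). It was larger in RIP for Tob1 over Tob2 (0.57 and 0.32) and Btg4 over Btg1 (0.99 and 0.42).

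**Figure D2:**
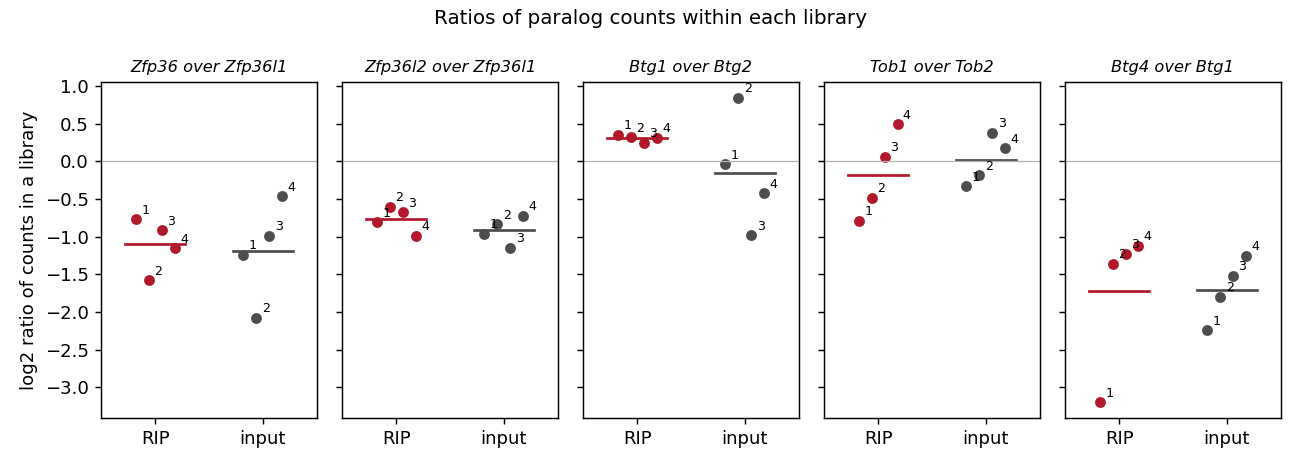
Log2 ratio of the counts of paralogs within each library (vertical axis; pseudocount 0.5), for RIP (red, left) and input (grey, right), with library numbers and a bar at the mean. Btg1 over Btg2 is tight in RIP, from 0.25 to 0.36, and wide in input, from -0.98 to 0.85, and the groups overlap for all 5 pairs.

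The start regions of Btg2, Zfp36 and Btg1 are shown because Btg2 and Zfp36 are both known as immediate early genes and their levels are set beside those genes below, with Btg1 as the paralog for comparison. Each is the RefSeq window on GRCm38.p6 from 250 bases before to 50 bases after the annotated start, 5′ to 3′ on the gene's strand. Of the 9 adaptors, 8 had such windows, and Zfp36l2 did not. Capitals mark matches, on either strand, to the CArG box that serum response factor binds, to the cyclic AMP response element (CRE) TGACGTCA, to the EGR motif GCGNGGGCG and to TATAAA.
Btg2, chr1:134079106-134079405, minus strand: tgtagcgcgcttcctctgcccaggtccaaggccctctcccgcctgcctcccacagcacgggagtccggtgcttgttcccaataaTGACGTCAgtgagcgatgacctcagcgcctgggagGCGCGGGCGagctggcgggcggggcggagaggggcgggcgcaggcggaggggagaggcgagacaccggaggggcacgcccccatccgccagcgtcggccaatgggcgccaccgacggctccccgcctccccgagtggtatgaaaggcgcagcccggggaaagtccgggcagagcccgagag
Zfp36, chr7:28379179-28379478, minus strand: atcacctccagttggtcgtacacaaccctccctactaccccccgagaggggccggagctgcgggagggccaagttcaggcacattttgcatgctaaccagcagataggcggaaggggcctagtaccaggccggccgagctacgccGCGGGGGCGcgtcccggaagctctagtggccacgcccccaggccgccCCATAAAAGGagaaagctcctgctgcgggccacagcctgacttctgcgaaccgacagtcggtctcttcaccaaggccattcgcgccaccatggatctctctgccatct
Btg1, chr10:96616751-96617050, plus strand: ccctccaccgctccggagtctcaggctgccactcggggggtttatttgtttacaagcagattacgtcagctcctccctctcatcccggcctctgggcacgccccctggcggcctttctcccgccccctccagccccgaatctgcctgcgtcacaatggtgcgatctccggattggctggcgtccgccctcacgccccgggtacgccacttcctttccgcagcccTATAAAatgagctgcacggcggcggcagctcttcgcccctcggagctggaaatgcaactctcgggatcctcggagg

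The CArG box was matched in Zfp36, at positions -58 to -49 from the start, and in 1.63% of all 32851 windows. The CRE was matched in Btg2, at positions -166 to -159 from the start, and in 1.79% of windows. The EGR motif was matched in both Btg2 and Zfp36 and in 5.55% of windows, and no matches overlapped in the 3 sequences shown. TATAAA was matched in Btg1, Tob1 and Zfp36l1 and in 13.6% of windows. A match describes these letters only, and binding was not measured here.

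Zfp36 varied more between libraries than between groups. It encodes tristetraprolin, which binds AU-rich elements and recruits CCR4-NOT (chromosome 7, 28376784 to 28379228). The transcript had 291, 113, 164 and 158 CPM in RIP 1 to 4, against 233, 136, 206 and 282 CPM in input 1 to 4. RIP 1 was above every input, and the other 3 RIP libraries lay among or below the lower inputs. The log2 fold change was -0.24 ± 0.30 (SE, n = 4 each, 95% interval -0.88 to 0.40, edgeR adjusted p = 0.875). It was -0.56 without RIP 1, -0.07 without RIP 2, -0.41 without input 2 and -0.08 without input 4. In libraries 1 and 2 alone it was 0.12, and in libraries 3 and 4 alone -0.60.

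Zfp36l1 and Zfp36l2, the family members with known roles in ovarian and germ cells, gave negative values of the same size range. Zfp36l1 (chromosome 12, 80107760 to 80113013) had 496, 338, 310.0 and 350.4 CPM in RIP 1 to 4, against 552, 573, 407 and 390 CPM in input 1 to 4. RIP 2 to 4 lay below every input and RIP 1 among them. The log2 fold change was -0.36 ± 0.24 (SE, n = 4 each, edgeR adjusted p = 0.751). With 1 library left out it ran from -0.53 without RIP 1 to -0.27 without input 2. The edgeR unadjusted p ran from 0.0436 without RIP 1 to 0.332 without RIP 3. Zfp36l2 (chromosome 17, 84183924 to 84187947) had 283, 223, 194 and 177 CPM in RIP 1 to 4, against 284, 321, 184 and 237 CPM in input 1 to 4. Its groups overlapped, with a log2 fold change of -0.23 ± 0.25 (SE, n = 4 each, edgeR adjusted p = 0.851). That value was -0.37 without RIP 1, -0.13 without RIP 4, -0.10 without input 2 and -0.35 without input 3.

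Within libraries, Zfp36l2 kept closer to Zfp36l1 than Zfp36 did. The log2 ratio of Zfp36l2 over Zfp36l1 ranged from -0.99 to -0.60 in RIP and from -1.15 to -0.72 in input. The ratio of Zfp36 over Zfp36l1 ranged from -1.58 to -0.77 in RIP and from -2.08 to -0.47 in input. Neither ratio differed beyond the spread between groups (exact two-sided permutation tests, p = 0.286 and 0.8, adjusted over 5 pairs 0.786 and 1.0, n = 4 each). With 1 library left out, the difference of 0.15 for Zfp36l2 over Zfp36l1 ran from 0.07 to 0.22, and that of 0.09 for Zfp36 over Zfp36l1 from -0.21 to 0.33. Across the 8 libraries log2 CPM of Zfp36l1 and Zfp36l2 had a Pearson r of 0.85, a description of libraries that share their scaling and depth.

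Btg4, the adaptor made in oocytes, was spread most widely in RIP. It lies on chromosome 9 from 51102147 to 51119924, where the microRNA genes Mir34b and Mir34c and the gene Hoatz overlap its span. The rows of both microRNAs held 0 counts in all libraries, and that of Hoatz, listed by its older name 4833427G06Rik, held 0 to 53 counts. Btg4 had 16.4, 57.8, 77.4 and 72.7 CPM in RIP 1 to 4, against 38.0, 52.0, 56.2 and 67.1 CPM in input 1 to 4. RIP 1 was below every other library, and RIP 3 and 4 were above every input. The log2 fold change was 0.07 ± 0.38 (SE, n = 4 each, 95% interval -0.74 to 0.89, edgeR adjusted p = 0.976), and with 1 library left out it ran from -0.11 without RIP 3 to 0.38 without RIP 1. It was also negative without RIP 4 (-0.07), without input 1 (-0.06) and with the replicate block (-0.10).

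RIP 1 also had the lowest share of all counts in the 12 oocyte markers among RIP libraries, 0.218%. That share was 0.315% to 0.344% in RIP 2 to 4 and 0.229% to 0.345% in input. In CPM, which use TMM factors, the 12 markers summed to 2630 in RIP 1, again the lowest of the RIP libraries. The sums were 2517, 3852, 2100 and 2391 CPM in input 1 to 4, so RIP 1 was above input 1, 3 and 4. The part of oocyte content in the Btg4 levels was not tested. Btg4 amounted to 0.624% of the summed CPM of the 12 oocyte markers in RIP 1, beside 1.78% to 2.60% in the other RIP libraries and 1.35% to 2.81% in input. These percentages lean on Padi6, which alone averaged 1379 CPM in RIP and 1169 CPM in input, and do not measure oocyte content evenly over the markers. Among 7025 candidate genes, the one most like Btg4 across libraries was Ccnb1, which encodes cyclin B1 (Pearson r = 0.97 over 8 libraries). The highest r of so many candidates is large by selection, and the nearest genes of the other adaptors reached 0.88 to 0.98. Ccnb1 had 16.3, 38.3, 48.3 and 41.0 CPM in RIP 1 to 4, against 31.0, 44.3, 38.4 and 48.5 CPM in input 1 to 4. It too was lowest in RIP 1. Of the oocyte markers, the zona pellucida gene Zp2 was nearest to Btg4 (r = 0.87), and 8 of the 12 had a positive r, with a median of 0.34. Zp2, picked as the nearest, was lowest in RIP 1 as well. The log2 ratio of Btg4 over Btg1 was -3.20 in RIP 1, -1.36 to -1.12 in RIP 2 to 4 and -2.24 to -1.25 in input (exact permutation p = 1.0, n = 4 each). The difference between group means was -0.02, and it was 0.47 without RIP 1 and -0.23 without RIP 4.

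Tob1 and Tob2, whose proteins bind both CAF1 and the poly(A)-binding protein, showed small differences between group means. Tob1 (chromosome 11, 94209842 to 94215495) had 37.6, 44.7, 44.7 and 55.7 CPM in RIP 1 to 4, against 43.1, 62.2, 49.9 and 53.0 CPM in input 1 to 4. Tob2 (chromosome 15, 81848270 to 81858326) had 65.0, 62.4, 42.7 and 39.5 CPM in RIP 1 to 4, against 54.0, 70.4, 38.3 and 46.9 CPM in input 1 to 4. The groups overlapped for both genes. The log2 fold changes were -0.19 ± 0.26 for Tob1 and 0.0014 ± 0.29 for Tob2 (SE, n = 4 each, edgeR adjusted p = 0.887 and 1.000), and the 95% interval of Tob2 ran from -0.61 to 0.61. With 1 library left out, Tob1 ran from -0.29 without RIP 4 to -0.09 without input 2, and Tob2 from -0.12 to 0.18. Tob2 was higher in libraries numbered 1 and 2 than in those numbered 3 and 4 in both groups. Of the 9 granulosa markers 7 had a positive r with Tob2 (median 0.68), highest for Inha at 0.92. This was not particular to Tob2: 8 had one with Zfp36l1 (median 0.45), and 7 each with Zfp36l2 (0.59) and Btg1 (0.14). The other adaptors had 1 to 5. Tob2 also reached 0.87 with the stromal marker Col1a1 (4 of 8 positive) and 0.76 with the oocyte marker Zp3 (6 of 12 positive). The share over all genes was not taken. The parts of granulosa content and of library depth in the split of Tob2 between libraries were not tested. The log2 ratio of Tob1 over Tob2 averaged -0.18 ± 0.57 in RIP and 0.01 ± 0.32 in input (exact permutation p = 0.571, or 0.952 adjusted over 5 pairs). The difference of -0.19 was 0.01 without RIP 1 and -0.42 without RIP 4.

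**Figure D3:**
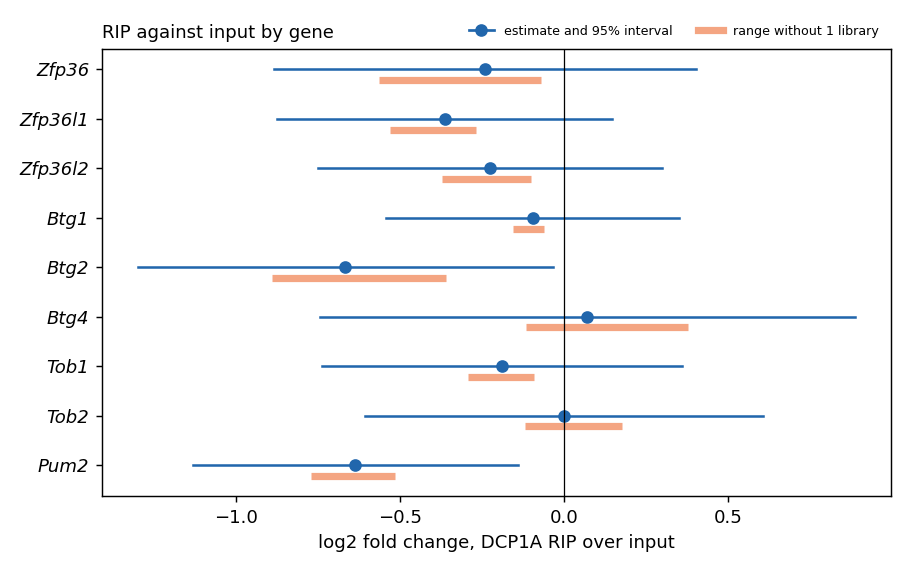
Log2 fold change of RIP over input (horizontal axis) for the 9 adaptors, with approximate 95% intervals from edgeR (blue) and the range when 1 library at a time is left out (orange). The intervals of Pum2 and Btg2 lie below 0 before adjustment over genes, and Btg4 and Tob2 lie near 0.

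The genes most like each adaptor differed from one adaptor to the next. Likeness was the Pearson r of log2 CPM over the 8 libraries, which share their scaling. The 3 highest were taken among 7025 candidates, the tested genes with at least median expression without Gm and Rik symbols. Such values are large by selection. Zfp36 was nearest to Fbxw2, Fibp and the immediate early gene Egr1 (r = 0.90, 0.90 and 0.89). Btg2 was nearest to a row written 5-Mar, which looks like a gene symbol turned into a date, and to Prpf18 and Cacybp (r = 0.96 each). Pum2 was nearest to Ap3s1, Impad1 and Zmpste24 (r = 0.97, 0.97 and 0.96), and Btg4 after Ccnb1 to Prkdc and Rbm12 (r = 0.96 and 0.95). Zfp36l1 was nearest to Wdr61 (r = 0.97), Zfp36l2 to Sntb1 (0.98), Btg1 to Tomm6 (0.88), Tob1 to Ak3 (0.96) and Tob2 to Nell1 (0.98).

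Of 16 immediate early genes, all 16 had a positive r with Zfp36 (median 0.48) and 15 with Btg2 (median 0.43). The numbers were 10 with Zfp36l1, 9 with Zfp36l2, 5 with Tob2, 4 each with Btg4 and Pum2, 3 with Btg1 and 2 with Tob1. These r values come from the same 8 libraries and are not independent, and the share over all genes was not taken. Egr1 had 1078, 762, 809 and 766 CPM in RIP 1 to 4, against 1167, 771, 1094 and 1102 CPM in input 1 to 4. Cyr61, the immediate early gene nearest to Btg2 (r = 0.87), had 45.1, 43.1, 66.6 and 42.5 CPM in RIP 1 to 4, against 51.5, 53.4, 169 and 75.1 CPM in input 1 to 4. Input 3 was the highest library for both Btg2 and Cyr61, and also for the stromal marker Nr2f2 (r = 0.96 with Btg2). Over the 8 stromal markers 5 had a positive r with Btg2, with a median of 0.36, and their summed level was lowest in input 3, at 4273 CPM. The oocyte marker Figla also had a high r with Btg2, 0.87, while 4 of the 12 oocyte markers had a positive one. The part of stromal cells in the Btg2 levels was not tested, and in bulk RNA fewer cells of a type and less RNA per cell cannot be told apart. Over the 16 immediate early genes the median log2 fold change was -0.05, with 0 passing edgeR's test, beside 0.0409% over all genes. At an edgeR unadjusted p under 0.05, 0 were higher and 2 lower (Egr2 and Cyr61), beside 3.15% and 4.28% over all genes.

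**Figure D4:**
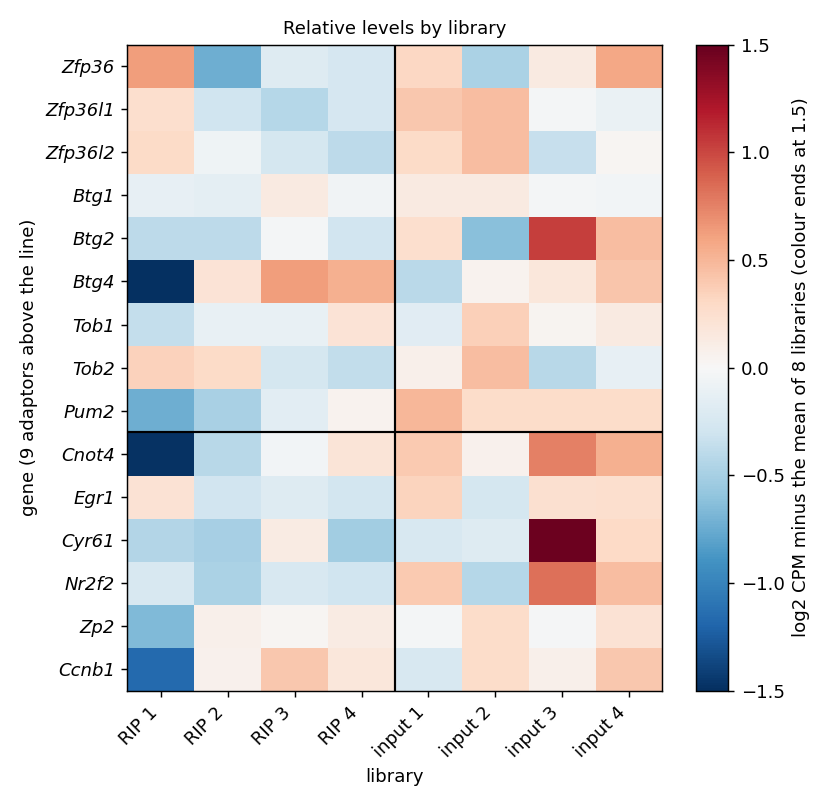
Log2 CPM minus the mean of the 8 libraries (colour, cut at 1.5 either side) for the 9 adaptors (above the line) and 6 other genes named in the text, with RIP libraries on the left and input libraries on the right. Btg4, Cnot4 and Ccnb1 share their lowest value in RIP 1, and Btg2, Cyr61 and Nr2f2 share their highest in input 3.

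The enzymes that the adaptors recruit had no call either, where edgeR called 6 of 14667 genes (0.0409%) lower and 0 higher. At that share, 0 calls in the short lists here and below do not set them apart from other genes. Over all genes tested, 51.7% were negative and the median was -0.02. Of 14 deadenylase subunit genes tested, 0 passed edgeR's test, 8 had a negative log2 fold change and the median was -0.17. The ubiquitin ligase subunit gene Cnot4 (-0.78 ± 0.33, SE) was lower at an unadjusted p under 0.05, and the NOT module gene Cnot2 (-0.61 ± 0.29) and the CAF1 nuclease gene Cnot7 (-0.52 ± 0.28) followed without reaching it. Cnot4 had 17.7, 37.4, 48.4 and 57.0 CPM in RIP 1 to 4, against 65.5, 52.3, 84.5 and 72.4 CPM in input 1 to 4, and its r with Pum2 was 0.90. That was the highest r of the 14 subunit genes, of which 9 had a positive r with Pum2, with a median of 0.43. The r spans both groups, and both genes had lower means in RIP, which by itself raises it. Both Cnot4 and Pum2 were lowest in RIP 1 and next lowest in RIP 2.

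Of 13 tested genes of other RNA-binding recruiters of deadenylases, 0 passed, beside 0.0409% over all genes, 9 were negative and the median was -0.19. The lowest p of this list belonged to the stem-loop binding Roquin genes Rc3h1 (-0.58 ± 0.30, SE) and Rc3h2 (-0.55 ± 0.31) and the GW182 gene Tnrc6b (-0.40 ± 0.25). The BTG gene Btg3 was left out of the test by the filter on low counts. It had 0, 365, 40 and 324 counts in RIP 1 to 4, against 0 counts in each input library after rounding. Of its 8 deposited values 7 were not whole, so its level is uncertain.

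Of 9 genes of poly(A)-binding proteins and their partners, 0 passed, 8 were negative and the median was -0.36. Pabpc1, the main cytoplasmic poly(A)-binding protein gene, had 227, 329, 244 and 373 CPM in RIP 1 to 4, against 338, 465, 929 and 515 CPM in input 1 to 4. RIP 4 exceeded input 1, so the groups overlapped (log2 -0.94 ± 0.30, SE, n = 4 each, edgeR unadjusted p = 0.00700, adjusted p = 0.617). Pabpc5 (-2.55 ± 1.30) and Pabpc4l (-1.28 ± 0.70) had the next lowest p, both at levels of few CPM. Of 9 AU-rich mRNAs known as ZFP36 targets that passed the filter, 0 passed the test, 6 were negative and the median was -0.27, with Fos (-0.38 ± 0.27), Notch1 (0.46 ± 0.33) and Vegfa (-0.27 ± 0.26) at the lowest p. Il6 and Il10 held 0 counts in all libraries.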

How the data were processed

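Per the labels' protocols, a Magna RIP kit isolated the DCP1A-bound RNA, and a SMARTer stranded total RNA kit for small inputs gave the libraries. The submitters' processing notes name mm10. For the aligner, the counter, the annotation and strand use, nothing is given in the sources used here, so reads of a gene and of one that overlaps it may be mixed. The authors deposited each value as an estimated count per gene (expected count; 23107 genes) with no scaling, as judged from the values. At most 1.85% of a library's values were not whole, and all were rounded. The comparison of RIP over input used edgeR 4.0.16 (TMM, filterByExpr with minimum count 10, robust quasi-likelihood fit) under R 4.3.3. DESeq2 1.42.0, limma 3.58.1, other scalings and filters, blocks and left-out libraries were alternatives. The fit was tested on simulated data. CPM carry no length scaling, so genes were not ranked by level. The SE is the absolute log2 fold change over the root of F, and intervals rest on it. Within-library ratios had a pseudocount of 0.5. All 9 adaptors are named, with up to 3 genes of lowest p per list and the 3 most alike per adaptor; others were picked after their values were seen. The members and lists were chosen with earlier results of these data known.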

Additional observations from a re-analysis of the deposited data

Results flagged for a closer look

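The Pum2 level of input 1, 264.6 CPM, stood far from the other inputs, which lay at 226 to 227 CPM. Without input 1 the log2 fold change of Pum2 was -0.58, and the other 3 inputs were still above every RIP library. The log2 ratio of Btg4 over Btg1 in RIP 1, -3.20, stood far from the other RIP libraries, which lay between -1.36 and -1.12. These 2 were found among 28 groups of 4 libraries, by the gap to the nearest library against the range of the 4, which chance makes large for about 1 group in 20, so their number is near what chance gives.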

How the results depend on the processing

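None of the 9 adaptors was called under any of the 21 alternatives, and the log2 fold changes of Zfp36l1, Zfp36l2, Btg2, Tob1 and Pum2 kept their sign in all of them. Over the table, edgeR called 0 genes higher in RIP and 6 lower. DESeq2 called 13 higher and 43 lower, limma voom with sample weights 20 lower, the replicate block 13 and 42, libraries 1 and 2 against 3 and 4 as a block 12 and 43, and libraries 1 and 2 alone 3 and 24. Leaving out 1 library gave 0 to 1 higher and 4 to 16 lower, with 16 without RIP 1 and 15 without input 3. In their deviations from the group mean, same-numbered libraries correlated at 0.16, 0.09, 0.18 and 0.12. RIP 1, RIP 2 and RIP 3 were each closest to the input of the same number, and RIP 4 to input 3 (0.27). The main test did not take the replicate numbers as pairs, and these values do not settle whether they are. With the replicate block Btg4 was -0.10, Pum2 -0.66 (edgeR unadjusted p = 0.00424, adjusted p = 0.177) and Btg2 -0.56 (unadjusted p = 0.0184, adjusted p = 0.281).

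Tob2, near 0, became -0.0047 with RLE factors, -0.013 with library size alone, -0.0016 without the 10 largest genes in library sizes, -0.0046 by DESeq2, -0.047 by voom, -0.0031 with at least 1 CPM in all 8 libraries, -0.0080 with the block of libraries 1 and 2 against 3 and 4, -0.052 in libraries 3 and 4 alone, and -0.12 to 0.18 with 1 library left out. Libraries 1 and 2 alone gave Zfp36 0.12 and Btg4 -0.27, and libraries 3 and 4 alone gave Btg1 0.077. Btg4 ran from -0.11 to 0.38 with 1 library left out. The cause was not tested. The biological coefficient of variation of the 9 adaptors was 0.235 to 0.389, beside a common value of 0.559 over all genes tested. The median level was 167 CPM for the adaptors and 22.8 CPM over all genes tested, so these values do not compare genes of like level.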
